A study of Homo sapiens with 26 samples.

Results

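The genes described here belong to the antioxidant programme governed by the transcription factor NRF2, together with the pentose phosphate pathway and the enzymes that remove peroxides. The group holds 41 genes, taken by name from the count table, and all 41 were found once among its 58735 genes. They were read in 26 libraries of 16HBE cells, human bronchial epithelial cells immortalised with SV40. WT cells (line 16HBE14o-, WT CFTR) were sequenced in normal glucose (6 libraries) and in high glucose (5 libraries). CF cells (line 16HBEge, DeltaF508 CFTR) were sequenced in normal glucose (6 libraries) and in high glucose (6 libraries). The remaining 3 libraries were of WT cells kept in normal glucose and labelled not polarized. CFTR is the chloride and bicarbonate channel whose loss of function causes cystic fibrosis, and DeltaF508 is the common deletion of a single phenylalanine. That deletion leaves the transcript in place, so gene counts give no check of the genotype. Normal glucose was 5.5 mM and high glucose 17.5 mM, given for 7 days with the medium changed every day, on Transwell filters seeded with 250000 cells a well. Each sample pooled 2 filters. Each genotype was represented by 1 cell line, so an effect of the CFTR genotype and any other difference between the lines cannot be told apart. Separate cultures behind the libraries of 1 group are not stated, so the p-values reflect only how much these samples varied, which may be technical variation.

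NRF2, the product of NFE2L2, is held in the cytoplasm by KEAP1, which presents it for ubiquitination and degradation. Electrophiles and oxidants modify cysteines of KEAP1, NRF2 then accumulates, pairs with a small MAF protein such as MAFG, and binds antioxidant response elements near its target genes. Those targets import cystine and make glutathione, keep thioredoxin and glutathione reduced with NADPH, supply that NADPH, detoxify quinones and carbonyls, and handle heme and iron. The pentose phosphate pathway and malic enzyme make NADPH from sugars and malate. Peroxiredoxins, glutathione peroxidases and catalase use thiols or dismutation to remove hydrogen peroxide and lipid peroxides. Airway epithelium meets oxidants from the air and from inflammation, and this system is one of its main defences.

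Promoters were searched for the core of the antioxidant response element, TGACNNNGC, where N is any base, on both strands, because this is the sequence through which NRF2 and small MAF proteins bind. The RefSeq table (GRCh38.p14) held 300 bases, 250 before and 50 after the start of transcription, for 32 of the 41 genes. SLC7A11, GSS, GSR, PRDX1, PRDX6, SOD1, ABCC1, ABCC3 and HMOX1 were not among the 32. A match lay in 5 of these 32 promoters (15.6%), against 4687 of all 35116 promoters of the table (13.3%). Within these 300 bases the share was thus close to that of promoters at large. Sequence farther from the start was not searched, so the shares cannot show whether the group holds more elements. The 5 matched stretches are given 5′ to 3′ on the strand of the gene, with the 9 bases of the match in capitals. A match is a run of letters and not evidence of binding. In GCLM, PGD and GPX2 the match reads in the opposite direction, so the capitals show its reverse complement.
GCLM: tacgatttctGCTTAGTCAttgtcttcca
TXNRD1: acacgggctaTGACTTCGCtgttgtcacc
ME1: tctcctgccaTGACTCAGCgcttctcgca
PGD: cctcgccgggGCAATGTCAtctaggtgct
GPX2: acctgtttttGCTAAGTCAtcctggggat
The GCLM stretch is chr1:93909446-93909474 on the minus strand, with the first base of the match 34 bases before the RefSeq start. That of TXNRD1 is chr12:104215670-104215698 on the plus strand, 99 bases before the start. That of ME1 is chr6:83431170-83431198 on the minus strand, 137 bases before the start. The PGD stretch, chr1:10398853-10398881 on the plus strand, lies 201 bases before the RefSeq start and inside the longer GENCODE gene model. That of GPX2 is chr14:64942849-64942877 on the minus strand, 122 bases before the RefSeq start and also inside the GENCODE gene model. TXNRD1 and ME1 each held a further match around the start itself.

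Levels differed widely between the genes. Per gene length, in FPKM as the authors deposited them, the most abundant in WT cells in normal glucose was FTL, the light chain of the iron store ferritin, at 666 ± 60.1 FPKM (SD, n = 6). TXN, the small protein thioredoxin that reduces disulfides, followed at 163 ± 45.1 FPKM. Next came the peroxiredoxins PRDX1 at 137 ± 19.1 FPKM and PRDX3, its mitochondrial relative, at 102 ± 13.8 FPKM, and the glutathione peroxidase GPX1 at 94.5 ± 22.7 FPKM. TXN and PRDX1 differed by less than the SD of TXN, and PRDX3 and GPX1 by less than the SD of either. These SDs are across libraries, and the order of the genes within each library was not compared. NFE2L2 itself stood at 17.4 ± 1.5 FPKM, KEAP1 at 13.9 ± 1.47 FPKM and MAFG at 13.9 ± 0.904 FPKM, in the middle of the group. Among the lowest above 1 FPKM were CAT, the peroxisomal enzyme catalase, at 1.5 ± 0.118 FPKM and the glutaredoxin GLRX at 1.02 ± 0.246 FPKM.

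A part of the programme was nearly silent in these cells. The gastrointestinal glutathione peroxidase GPX2 had between 1 and 12 reads a library, and AKR1C1, which reduces ketosteroids and reactive carbonyls, between 0 and 17. Its relatives AKR1C2 and AKR1C3 had between 0 and 3 reads and did not pass the low-count filter. AKR1C genes are near copies of each other, and reads may be split among them. Of the 41 genes, 39 passed the filter of the fit over the 4 glucose groups and 37 that of the comparison with not polarized cells, where AKR1C1 and GPX2 also dropped out. The genes that dropped out are left out of the counts of tested genes, and counts below are therefore not over all members.

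**Figure D1:**
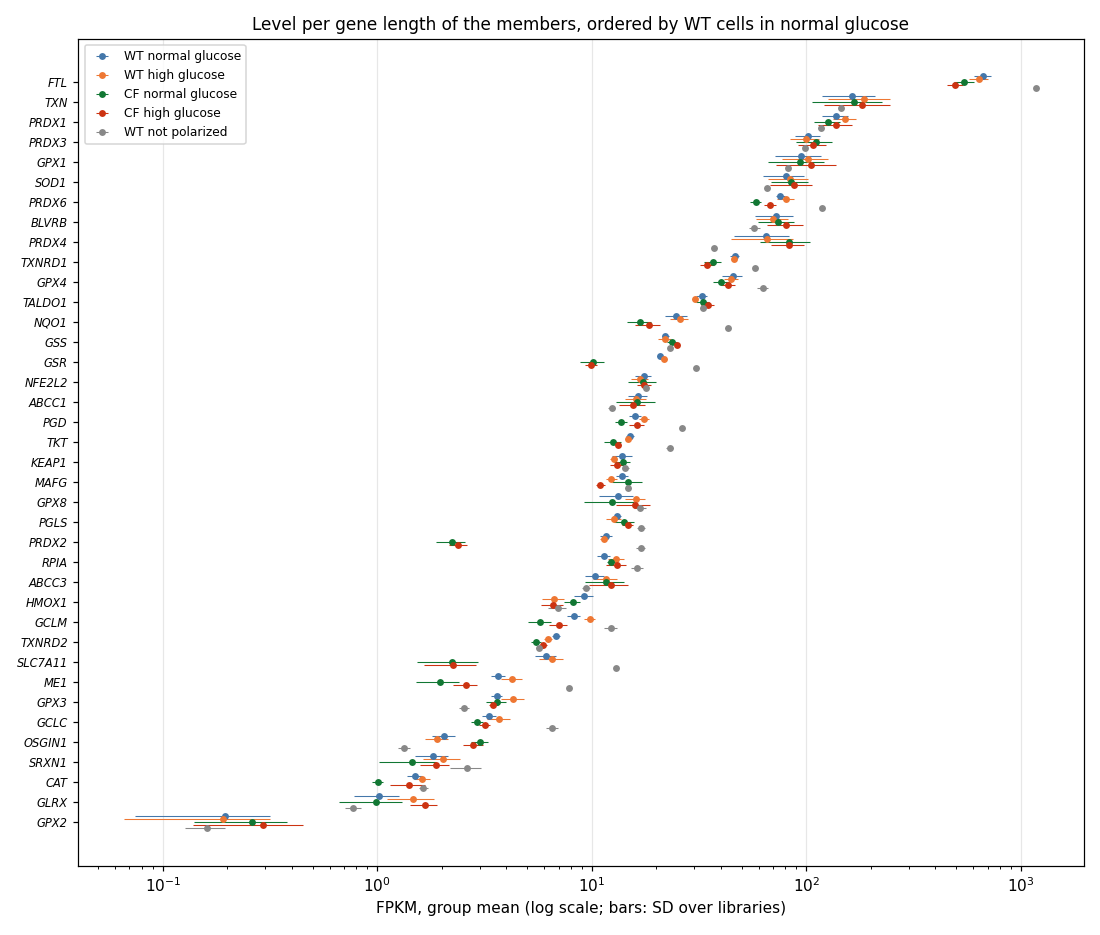
Level per gene length (FPKM, log axis) of the 38 genes with at least 0.1 FPKM in WT cells in normal glucose, as group means with SD over libraries (n = 6, 5, 6, 6 and 3). FTL is highest in all 5 groups, and the CF points of PRDX2, SLC7A11, GSR and ME1 lie to the left of their WT points.

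The libraries held 14658319 to 20413839 counts each. The 7 epithelial markers (among them EPCAM, CDH1 and KRT8) summed to between 5018 and 6822 CPM in every library, and each was above 1 CPM in every group. CPM here are counts relative to library size, after TMM scaling over all 26 libraries. The club and goblet cell markers summed to at most 0.520 CPM, with MUC5AC at 0 throughout, and blood cell markers to at most 0.805 CPM. Ciliated cell markers summed to between 3.37 and 8.70 CPM, with FOXJ1 at no more than 1.64 CPM on average and TEKT1 at or near 0. Fibroblast markers summed to 13.3 to 44.3 CPM, mostly COL1A1, with DCN at or near 0. Endothelial markers summed to 11.5 to 27.3 CPM, mostly CDH5, with PECAM1 at or near 0.

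Within each of the 4 glucose groups, libraries numbered 1 to 3 stood apart from those numbered 4 to 6. The labels do not say what the numbers mark. Of the 39 tested genes, 10 (25.6%) were higher in libraries 1 to 3 with no overlap in each of the 4 groups, against 7.97% of all 16338 genes tested. They were TXN, GLRX, PRDX1, PRDX3, PRDX4, GPX1, GPX8, SOD1, NQO1 and BLVRB. Another 2, the efflux pumps ABCC1 and ABCC3, were lower there in each group, against 4.51% of all genes. TXN showed it most plainly. In WT cells in normal glucose its libraries 1 to 3 had 198, 271 and 227 CPM and libraries 4 to 6 had 144, 148 and 145 CPM. The ratio of the 2 sets for TXN lay between 1.59 and 1.83 in the 4 groups, and that for PRDX4 between 1.32 and 1.90. This split ran through every group and did not coincide with glucose or line, and it is included in the spread within groups of these 12 genes. Each result below was therefore also computed within either set, the WT high glucose group having 2 libraries in the set 4 to 6.

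Glucose in WT cells moved 1 gene of the group. HMOX1, heme oxygenase 1, which breaks down heme to biliverdin, iron and carbon monoxide, fell to 0.724 of its level in normal glucose. No gene of the group rose. The count of 1 in 39 tested (2.56%) stands beside 2.96% of all 16338 genes called in this comparison (1.49% higher and 1.47% lower), so the group was called about as often as genes at large. Without overlap between the groups were 0 genes higher and 2 lower, against 1.98% and 2.12% of all genes (4.1% in either direction). At an unadjusted p under 0.05 there were 8. The median log2 fold change over the 39 was 0.05, against 0.001 over all genes.

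HMOX1 (ENSG00000100292, chr22:35380361-35394214, GRCh38) had 19.6, 22.2 and 25.6 CPM as lowest, median and highest value in the 6 normal glucose libraries of WT cells. In the 5 high glucose libraries it had 16.5, 16.9, 15.7, 18.3 and 13.1 CPM. Every high glucose library lay below every normal glucose library. The means were 22.3 ± 2.30 (SD, n = 6) and 16.1 ± 1.92 CPM (n = 5), a log2 fold change of -0.47 ± 0.10 (SE) with an adjusted p of 0.00729 by edgeR's quasi-likelihood test. In libraries 1 to 3 alone the log2 fold change was -0.42 (adjusted p = 0.0172) and in libraries 4 and above it was -0.51 (adjusted p = 0.0368). In bulk RNA, fewer cells that express a gene and less of its RNA per cell cannot be told apart. MAFG also had no overlap between the groups, by a margin smaller than the rounding, with 68.0, 72.8 and 80.2 CPM in normal and 66.8, 63.1, 59.7, 68.0 and 67.7 CPM in high glucose, but its log2 fold change of -0.17 ± 0.08 did not pass (adjusted p = 0.319).

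NFE2L2 and KEAP1 were not called. NFE2L2 (ENSG00000116044, chr2:177227595-177392697) had 93.5, 104 and 119 CPM in normal glucose and 100.03, 114, 105, 95.5 and 90.0 CPM in high glucose, with overlap (log2 fold change -0.06 ± 0.09). KEAP1 (ENSG00000079999, chr19:10486120-10503741) had 46.1, 53.1 and 62.5 CPM and 51.1, 46.5, 47.9, 46.3 and 47.9 CPM (log2 -0.14 ± 0.07, adjusted p = 0.385). NQO1, the quinone reductase most often read as an NRF2 target, had 71.5, 79.2 and 95.7 CPM in normal and 86.4, 90.4, 93.3, 76.2 and 74.7 CPM in high glucose (log2 0.05 ± 0.10). The 38 genes that did not pass had log2 fold changes from -0.17 to 0.53, the highest being GLRX. With a term for the library number set in the fit, 5 genes were called in place of 1, the further ones being GLRX (adjusted p = 0.00479), GPX8 (adjusted p = 0.0111), ABCC3 (adjusted p = 0.0182) and GCLM (adjusted p = 0.0199), and 1418 of all genes in place of 484.

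In CF cells high glucose moved 8 of the 39 tested genes, 6 up and 2 down. This share of 20.5% stands beside 8.41% of all genes called in CF cells (4.27% higher and 4.14% lower). Without overlap were 3 genes higher and 1 lower, against 2.33% and 2.35% of all genes (4.68% in either direction). The genes that rose were spread over several roles: GLRX and GCLM of the thiol and glutathione systems, PGD and ME1 of NADPH supply, and PRDX6 and CAT of peroxide removal. The genes that fell were MAFG, a partner of NRF2, and HMOX1. NFE2L2 and KEAP1 were not called. The 31 genes not called had log2 fold changes from -0.14 to 0.37. Among them, GPX8 was higher in high glucose within libraries 1 to 3 (log2 0.28, adjusted p = 0.0333) and within libraries 4 to 6 (log2 0.44, adjusted p = 2.84e-05). It was also called with a term for the set (log2 0.36, adjusted p = 7.60e-05). That term called 9 of the 39 genes of the group and 17.2% of all genes. The median log2 fold change over the 39 was 0.08, against 0.00 over all genes, and 11 had an unadjusted p under 0.05.

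The largest rise was that of GLRX (ENSG00000173221, chr5:95751319-95823005), which releases glutathione from protein cysteines. Its lowest, median and highest values were 4.04, 6.0 and 9.45 CPM in normal and 9.02, 11.1 and 12.5 CPM in high glucose. The groups overlapped across the library number sets but not within them, and libraries 1 to 3 were the high ones in both groups. Its means of 6.42 ± 2.06 and 10.9 ± 1.62 CPM (SD, n = 6 each) gave a rise of 1.69-fold (log2 0.75 ± 0.19 SE, adjusted p = 0.0145). The log2 fold change was 0.60 in libraries 1 to 3 and 0.99 in libraries 4 to 6, called in each. On the opposite strand, RHOBTB3 overlaps GLRX and had 1305% of its counts. With the strand setting of the counting not given, reads of the 2 genes cannot be told apart. The log2 fold change of RHOBTB3 was 0.24 (adjusted p = 0.105).

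Catalase and the peroxiredoxin PRDX6 rose without overlap. CAT (ENSG00000121691, chr11:34438925-34472062) had 3.30, 3.62 and 3.84 CPM in normal and 4.45, 4.59 and 6.78 CPM in high glucose, as lowest, median and highest. All 6 high glucose libraries lay above all 6 normal ones (log2 fold change 0.49 ± 0.11, adjusted p = 0.00696). In the sets alone it was 0.43 and 0.54, neither of which passed (adjusted p = 0.146 and 0.0515). PRDX6 (ENSG00000117592, chr1:173477266-173488807), which reduces phospholipid hydroperoxides with glutathione, had 127, 140.0 and 145 CPM in normal and 151, 159.9 and 180.0 CPM in high glucose. It did not overlap between the groups either (log2 0.23 ± 0.06, adjusted p = 0.0158). CAT is a gene of few counts here, 47 to 124 a library over all groups, which limits its precision.

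Of the genes that supply NADPH, PGD rose by 1.19-fold and ME1 by 1.33-fold. PGD (ENSG00000142657, chr1:10398592-10420144), 6-phosphogluconate dehydrogenase, makes NADPH in the oxidative branch of the pentose phosphate pathway. It had 37.8, 41.7 and 42.7 CPM in normal and 44.0, 48.0 and 55.1 CPM in high glucose, with no overlap (log2 0.25 ± 0.06, adjusted p = 0.0144). ME1 (ENSG00000065833, chr6:83210389-83431071), cytosolic malic enzyme, had 4.43, 6.58 and 8.93 CPM and 6.99, 8.65 and 10.3 CPM, with overlap (log2 0.41 ± 0.12, adjusted p = 0.0345). The ME1 rise was 0.80 in libraries 1 to 3 and 0.04 (adjusted p = 0.888) in libraries 4 to 6. The other 4 genes of the role (PGLS, RPIA, TKT and TALDO1) had log2 fold changes from 0.06 to 0.08 and none was called. GCLM (ENSG00000023909, chr1:93885205-93909456), the regulatory subunit of the enzyme that limits glutathione synthesis, had 28.4, 29.6 and 36.0 CPM and 33.3, 37.5 and 42.5 CPM, with overlap (log2 0.29 ± 0.08, adjusted p = 0.0203). The catalytic subunit GCLC did not pass (log2 0.12 ± 0.07), nor did the cystine importer SLC7A11 (log2 0.01 ± 0.18).

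MAFG (ENSG00000197063, chr17:81918270-81927714) fell in CF cells from 61.4, 78.3 and 90.8 CPM to 53.6, 57.7 and 60.6 CPM, given as lowest, median and highest, without overlap. Its log2 fold change was -0.43 ± 0.08 (adjusted p = 0.000637), with -0.26 in libraries 1 to 3 and -0.58 in libraries 4 to 6, called in each. Its normal glucose libraries 4 to 6 were the high ones (83.7, 90.3 and 90.8 CPM, against 61.4, 73.0 and 65.8 CPM in libraries 1 to 3). SIRT7, which overlaps MAFG on the same strand with 53.8% of its counts, had a log2 fold change of -0.07. HMOX1 fell from 17.2, 19.4 and 22.2 CPM to 12.5, 16.7 and 17.8 CPM, with overlap (log2 -0.30 ± 0.09, adjusted p = 0.0441), the same direction as in WT cells. NFE2L2 had 90.0, 101 and 129 CPM and 95.9, 106 and 115 CPM (log2 0.01 ± 0.08), KEAP1 had 47.3, 52.8 and 58.1 CPM and 45.6, 48.9 and 55.6 CPM (log2 -0.08 ± 0.07), and NQO1 had 46.1, 52.2 and 64.3 CPM and 51.7, 60.4 and 68.7 CPM (log2 0.14 ± 0.10). None of these 3 passed.

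All 8 called genes kept their direction in either library number set, and 3 of them (MAFG, GLRX and PRDX6) were called in both. Several calls were lost when 1 library was left out. GCLM was lost without CF normal glucose library 4, 5 or 6 or CF high glucose library 1 or 2 (adjusted p from 0.0576 to 0.0641), and PRDX6 without CF normal glucose library 4 or CF high glucose library 2 (adjusted p = 0.0573 and 0.0636). ME1 was lost without any of CF normal glucose libraries 1, 2, 3 and 6 and CF high glucose libraries 1 to 4 (adjusted p from 0.0547 to 0.108). HMOX1 was lost without any of CF normal glucose libraries 2, 3, 4 and 6 and CF high glucose libraries 1, 5 and 6 (adjusted p from 0.0508 to 0.114). MAFG, GLRX, PGD and CAT were called with any 1 library left out.

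**Figure D2:**
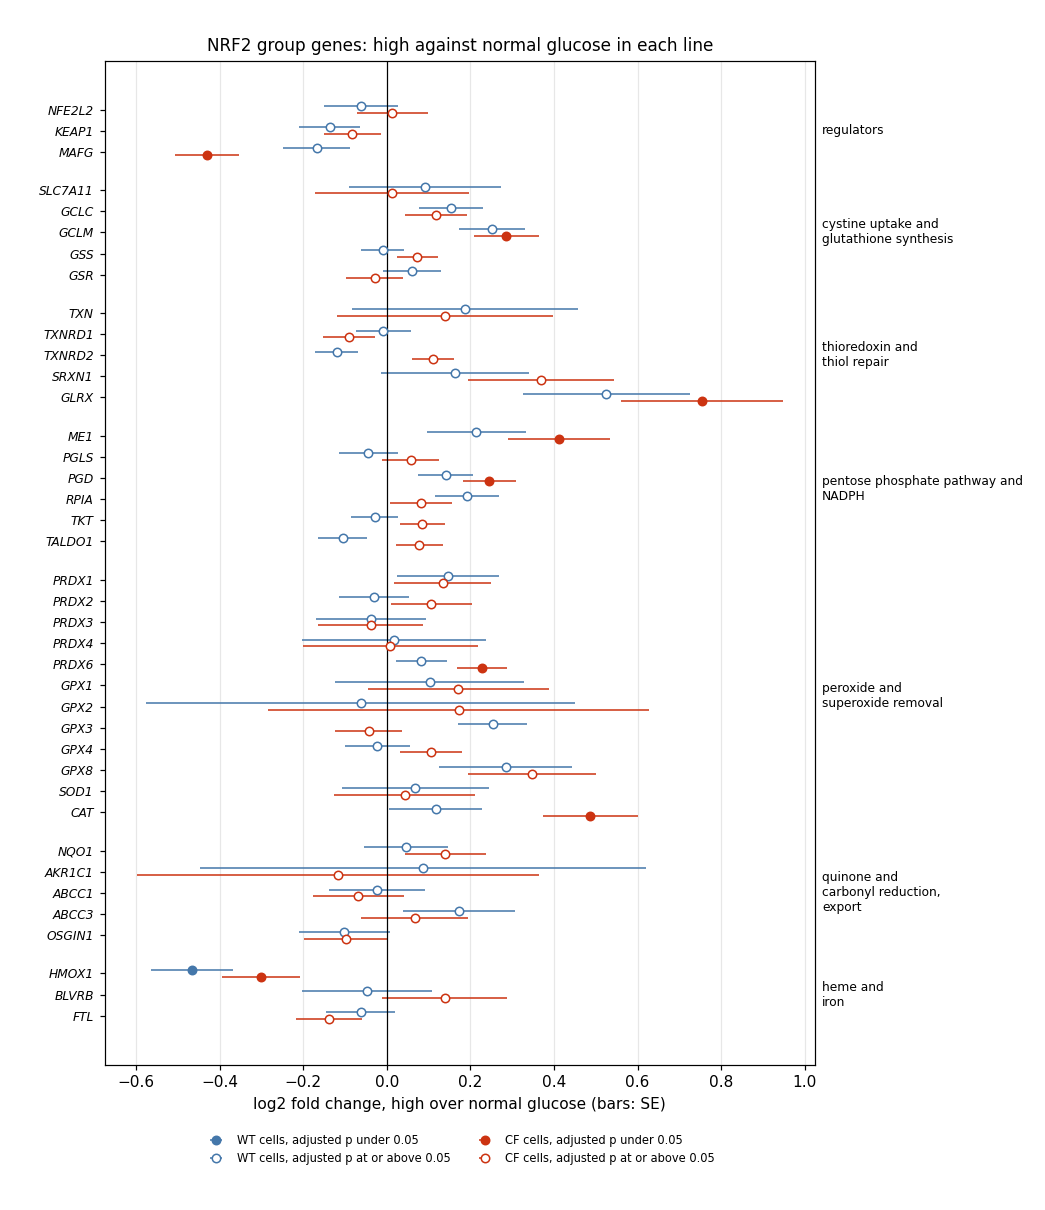
Log2 fold change of high over normal glucose with its SE for each of the 39 tested genes, by role, in WT cells (blue) and CF cells (red). Filled points passed an adjusted p of 0.05, which are HMOX1 in WT cells and 8 genes in CF cells.

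Whether the response to glucose differed between the lines was tested as the interaction of line and glucose. It called 0 of the 39 genes by edgeR, with 5 at an unadjusted p under 0.05, and 0 by DESeq2, against 0.0367% of all genes by edgeR (0.0122% higher and 0.0245% lower). The differences of log2 fold changes (CF minus WT) ran from -0.30 for the plasma glutathione peroxidase GPX3 to 0.37 for CAT. For MAFG the difference was -0.26 ± 0.11 (adjusted p = 0.634), for HMOX1 0.16 ± 0.13 and for GLRX 0.23 ± 0.28. NFE2L2 (0.07), KEAP1 (0.05) and NQO1 (0.09) did not pass either. The larger number of genes called in CF than in WT cells is thus not a tested difference between the lines for any gene of the group. In libraries 4 to 6 alone the MAFG difference was -0.45 and passed (adjusted p = 0.00497), and in libraries 1 to 3 alone no gene of the group passed.

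The further genes of the pathway, 60 listed by the same biology and 53 tested, were called in 3.77% for glucose in WT cells and 20.8% in CF cells, against 2.96% and 8.41% of all genes. With a term for the library number set, the share called over all genes rose to 8.68% in WT and 17.2% in CF cells. The counts of further pathway genes rose with it from 2 to 7 in WT and from 11 to 20 in CF cells. In WT cells 2 rose and none fell, which were XDH, the xanthine oxidoreductase that can release superoxide (log2 0.77), and AKR1B1, the aldose reductase that turns glucose to sorbitol (log2 0.40). In CF cells 7 rose and 4 fell. Those with the largest fold changes were CHAC1, which degrades glutathione (log2 0.77), the glutathione S-transferases GSTM4 (log2 0.65) and MGST2 (log2 0.48), the small MAF protein MAFF (log2 -0.48), and BACH1, a repressor that competes with NRF2 for its elements (log2 -0.37). Among the 7 further regulators in CF cells 3 fell and none rose, and among the 13 genes of glutathione use 4 rose and none fell, where 4.27% of all genes rose and 4.14% fell. The interaction called 0 of the 53 by edgeR, with 4 at an unadjusted p under 0.05.

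Between the lines the group showed larger differences, and most of those called were lower in CF cells. In normal glucose 14 of the 39 tested genes were called, 13 lower and 1 higher in CF cells. The share called lower was 33.3%, against 13% of all genes, and the share called higher 2.56%, against 11.4% (24.4% in either direction). In high glucose 16 were called, 12 lower (30.8%, against 10.6% of all genes) and 4 higher (10.3%, against 9.35%), and 19.9% of all genes in either direction. At an unadjusted p under 0.05 there were 16 and 17. The median log2 difference over the 39 was -0.06 in normal and -0.05 in high glucose, near the 0.00 and 0.01 of all genes. Without overlap between the lines were 12 genes lower and 1 higher in normal glucose (7.25% and 5.89% of all genes, 13.1% in either direction), and 9 lower and 3 higher in high glucose (7.34% and 6.72%, 14.1% in either direction). The genes not called had log2 differences from -0.33 to 0.52 and from -0.21 to 0.61. Lower at both glucose levels were 10 genes: SLC7A11, GCLM and GSR of glutathione supply, TXNRD1 of the thioredoxin system, ME1 and TKT of NADPH and pentose phosphate metabolism, the peroxiredoxins PRDX2 and PRDX6, NQO1, and FTL. These 10 are 10 of the 13 called lower in normal glucose and of the 12 in high glucose, and the lists rest on different libraries. OSGIN1 was higher at both levels, and no gene was called in opposite directions.

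PRDX2 (ENSG00000167815, chr19:12796820-12801859), a cytosolic peroxiredoxin abundant in red cells, differed most. It had 23.4, 24.4 and 27.8 CPM in WT and 3.61, 4.70 and 5.61 CPM in CF cells in normal glucose, as lowest, median and highest. The values in high glucose were 25.0, 23.6, 24.8, 24.9 and 22.6 CPM in the 5 WT libraries and 4.51, 4.82 and 5.67 CPM in the CF libraries. Every CF library lay below every WT library. Its means in normal glucose were 24.8 ± 1.57 and 4.66 ± 0.709 CPM (SD, n = 6 each), so that CF cells had 0.189 of the WT level (log2 difference -2.40 ± 0.09 SE, adjusted p = 2.00e-16). In high glucose the log2 difference was -2.27 ± 0.09 (adjusted p = 9.00e-16). HOOK2, which overlaps PRDX2 on the same strand and had 157% of its counts, differed by a log2 of -0.13 (adjusted p = 0.424) and -0.05. Of 97 tested genes within 2 Mb of PRDX2, 21 were called lower and 2 higher in normal glucose, with a median log2 difference of -0.04.

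Of the glutathione genes, SLC7A11 and GSR differed most. SLC7A11 (ENSG00000151012, chr4:138164097-138242349), the cystine-glutamate exchanger subunit that brings in the cystine for glutathione, had 48.6, 59.9 and 66.3 CPM in WT and 13.3, 21.5 and 28.8 CPM in CF cells in normal glucose. The values in high glucose were 54.4, 60.4, 61.7, 75.7 and 65.2 CPM in WT and 15.8, 20.4 and 31.7 CPM in CF cells. The lines did not overlap at either level (log2 -1.46 ± 0.18, adjusted p = 1.20e-06, and -1.53 ± 0.19, adjusted p = 1.03e-06). Within CF cells the number sets split, with 28.8, 25.6 and 28.7 CPM in libraries 1 to 3 and 13.3, 17.5 and 16.1 CPM in libraries 4 to 6 of normal glucose. The log2 difference was -0.99 in the first set and -2.03 in the other, passing in each. The 12 tested genes within 2 Mb of SLC7A11 had a median log2 difference of 0.04 in normal glucose, with 1 called in each direction.

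GSR (ENSG00000104687, chromosome 8), glutathione reductase, which turns oxidised glutathione back with NADPH, had 75.3, 78.8 and 83.0 CPM in WT and 33.1, 38.2 and 46.4 CPM in CF cells in normal glucose. The values in high glucose were 84.8, 84.5, 82.9, 82.2 and 78 CPM in WT and 34.2, 37.0 and 41.4 CPM in CF cells. The lines did not overlap, and CF cells had 0.483 of the WT level in normal glucose (log2 -1.05 ± 0.07, adjusted p = 4.14e-12) and 0.454 in high glucose (log2 -1.14 ± 0.07). Its neighbours were lower too. Of 17 tested genes within 2 Mb, 14 were called lower in CF cells and 0 higher at each glucose level, with median log2 differences of -0.88 and -1.01. Whether the difference of GSR is its own or that of the stretch of chromosome it lies in cannot be told apart from these counts. For comparison, the neighbours of the other genes of the group had medians between -0.17 and 0.25 in normal glucose. The lowest median was that around GPX4, where 30 of 95 tested neighbours were called lower and 7 higher.

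GCLM was lower in CF cells with a log2 difference of -0.53 ± 0.08 in normal glucose (adjusted p = 7.97e-06), with no overlap (40.6, 44.6 and 49.6 CPM in WT against 28.4, 29.6 and 36.0 CPM in CF cells), and of -0.49 ± 0.08 in high glucose. Its partner GCLC was called in high glucose (log2 -0.23 ± 0.08, adjusted p = 0.0329) and did not pass in normal glucose (log2 -0.19 ± 0.07, adjusted p = 0.0569). GSS, which adds the last amino acid to glutathione, went the other way, with a log2 difference of 0.09 ± 0.05 in normal glucose that did not pass and 0.18 ± 0.05 in high glucose that did (adjusted p = 0.0143). So 4 of the 5 genes of cystine uptake and glutathione synthesis were lower and 1 higher in high glucose, and 3 were lower in normal glucose. Of all genes, 10.6% were called lower and 9.35% higher in high glucose, and 13% lower in normal glucose. In the thioredoxin system, the cytosolic reductase TXNRD1 was lower at both levels (log2 -0.35 ± 0.06 and -0.43 ± 0.07), and the mitochondrial reductase TXNRD2 in normal glucose (log2 -0.31 ± 0.05) but not in high glucose (log2 -0.08 ± 0.05). A pseudogene on the strand of TXNRD1 (RPL18AP3, 22.8% of its counts) was higher in CF cells, by a log2 of 0.37 in normal glucose.

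Among NADPH and pentose phosphate genes, ME1 differed most. It had 11.3, 12.5 and 13.9 CPM in WT against 4.43, 6.58 and 8.93 CPM in CF cells in normal glucose, and 12.7, 13.6, 16.9, 14.1 and 15 CPM in WT against 6.99, 8.65 and 10.3 CPM in CF cells in high glucose. The lines did not overlap at either level (log2 -0.92 ± 0.12, adjusted p = 1.27e-06, and -0.72 ± 0.12, adjusted p = 5.63e-05). TKT, transketolase of the non-oxidative branch, was lower at both levels (log2 -0.27 ± 0.05 and -0.16 ± 0.06). PGD was lower in normal glucose (log2 -0.22 ± 0.06), and its log2 difference of -0.12 ± 0.07 in high glucose did not pass. TALDO1, transaldolase of the same branch as TKT, and PGLS, the lactonase between the 2 oxidative steps, were higher in high glucose (log2 0.19 ± 0.06 and 0.20 ± 0.07). The role thus had 3 genes lower in normal glucose, and 2 lower and 2 higher of 6 in high glucose. These counts stand beside 13% of all genes lower in normal glucose, and 10.6% lower and 9.35% higher in high glucose.

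Of the 12 genes of peroxide and superoxide removal, 3 were called lower at each level (25%) and none higher. Of all genes, 13% were called lower and 11.4% higher in normal glucose, and 10.6% lower and 9.35% higher in high glucose. PRDX6 was lower at both (log2 -0.39 ± 0.06 and -0.25 ± 0.06). CAT had 4.87, 5.53 and 5.91 CPM in WT and 3.30, 3.62 and 3.84 CPM in CF cells in normal glucose, with no overlap (log2 -0.58 ± 0.11, adjusted p = 0.000265), and its difference in high glucose did not pass (log2 -0.21 ± 0.11). GPX3 was called in high glucose (log2 -0.31 ± 0.08) with -0.01 ± 0.08 in normal glucose. GPX2, with its few reads, was not called. The other 7 genes (PRDX1, PRDX3, PRDX4, GPX1, GPX4, GPX8 and SOD1) had log2 differences from -0.18 to 0.34 in normal and from -0.15 to 0.34 in high glucose, and none was called. Most of these genes are split by library number. With a term for the set, PRDX4 was higher in CF cells at both levels (adjusted p = 0.0122 and 0.00517) and PRDX3 in high glucose (adjusted p = 0.0308), and GPX4 (adjusted p = 0.00497) and PRDX1 (adjusted p = 0.0413) were lower in normal glucose.

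NQO1 (ENSG00000181019, chr16:69706996-69726951) had 71.5, 79.2 and 95.7 CPM in WT and 46.1, 52.2 and 64.3 CPM in CF cells in normal glucose, and 86.4, 90.4, 93.3, 76.2 and 74.7 CPM in WT and 51.7, 60.4 and 68.7 CPM in CF cells in high glucose. Every CF library lay below every WT library at the same glucose level (log2 -0.58 ± 0.10, adjusted p = 4.76e-05, and -0.48 ± 0.10, adjusted p = 0.000752). OSGIN1 (ENSG00000140961, chr16:83948282-83966332), an oxidative stress-induced growth inhibitor, had 6.0, 7.16 and 8.16 CPM in WT and 9.65, 10.1 and 12.3 CPM in CF cells in normal glucose. The values in high glucose were 6.10, 5.53, 6.90, 7.25 and 7.36 CPM in WT and 8.43, 9.42 and 11.3 CPM in CF cells. It was the one gene of the group higher at both levels, each time without overlap and by 1.46-fold (log2 0.55 ± 0.10 and 0.55 ± 0.11). FTL was lower (log2 -0.30 ± 0.08 and -0.37 ± 0.08), with overlap at both levels. FTL has many processed pseudogenes, and how reads matching several places were counted is not given in the sources used here.

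None of the 3 regulators of the group passed the test between the lines. NFE2L2 differed by a log2 of -0.01 ± 0.08 (adjusted p = 0.949) in normal and 0.06 ± 0.09 in high glucose, and KEAP1 by -0.01 ± 0.07 and 0.05 ± 0.07. MAFG differed by 0.08 ± 0.08 and -0.18 ± 0.08, and HMOX1, called with glucose in each line, by -0.18 ± 0.09 and -0.02 ± 0.10, none of which passed. AGPS overlaps NFE2L2 on the opposite strand with 73.5% of its counts and did not pass either (log2 -0.01 in normal glucose).

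Some summed marker levels differed between the lines as well. The 7 epithelial markers summed to between 5225 and 6172 CPM in WT and between 6093 and 6651 CPM in CF cells in normal glucose. The 5 fibroblast markers summed to between 27.4 and 44.3 CPM in WT and between 15.4 and 25.9 CPM in CF cells, and the 3 endothelial markers to between 12.7 and 16.1 CPM and between 18.9 and 27.3 CPM. Their part in the differences of the group was not tested. With a term for the library number set, 34.5% of all genes were called in normal and 30.4% in high glucose. Of the group, it called 19 genes in normal and 20 in high glucose. Beside the peroxidases named above, those added were GCLC (adjusted p = 0.0249) and ABCC3 (adjusted p = 0.0289) in normal glucose, and MAFG (adjusted p = 0.0120) and BLVRB (adjusted p = 0.00627) in high glucose. In normal glucose all 14 calls stood in either library number set and with any 1 library left out. In high glucose 8 of the 16 stood in both sets. OSGIN1 had a log2 difference of 0.27 in libraries 4 and above (adjusted p = 0.188), and PRDX6 one of -0.13 in libraries 1 to 3 (adjusted p = 0.189). Several smaller differences in high glucose were lost when 1 library was left out. With all libraries, TKT and PGLS lay near the threshold (adjusted p = 0.0465 and 0.0424). TKT was lost without WT high glucose library 1, 2, 3 or 5 or CF high glucose library 1, 3, 5 or 6 (adjusted p from 0.0609 to 0.124), and PGLS without WT library 2, 4 or 5 or CF library 1, 2, 5 or 6 (adjusted p from 0.0519 to 0.127). GCLC was lost without WT library 4 or 5 or CF library 3, 5 or 6 (adjusted p from 0.0624 to 0.137), and GSS without WT library 4 or 5 (adjusted p = 0.0501 and 0.0549). TALDO1 was lost without CF library 2 (adjusted p = 0.0709) and GPX3 without WT library 3 (adjusted p = 0.0510).

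**Figure D3:**
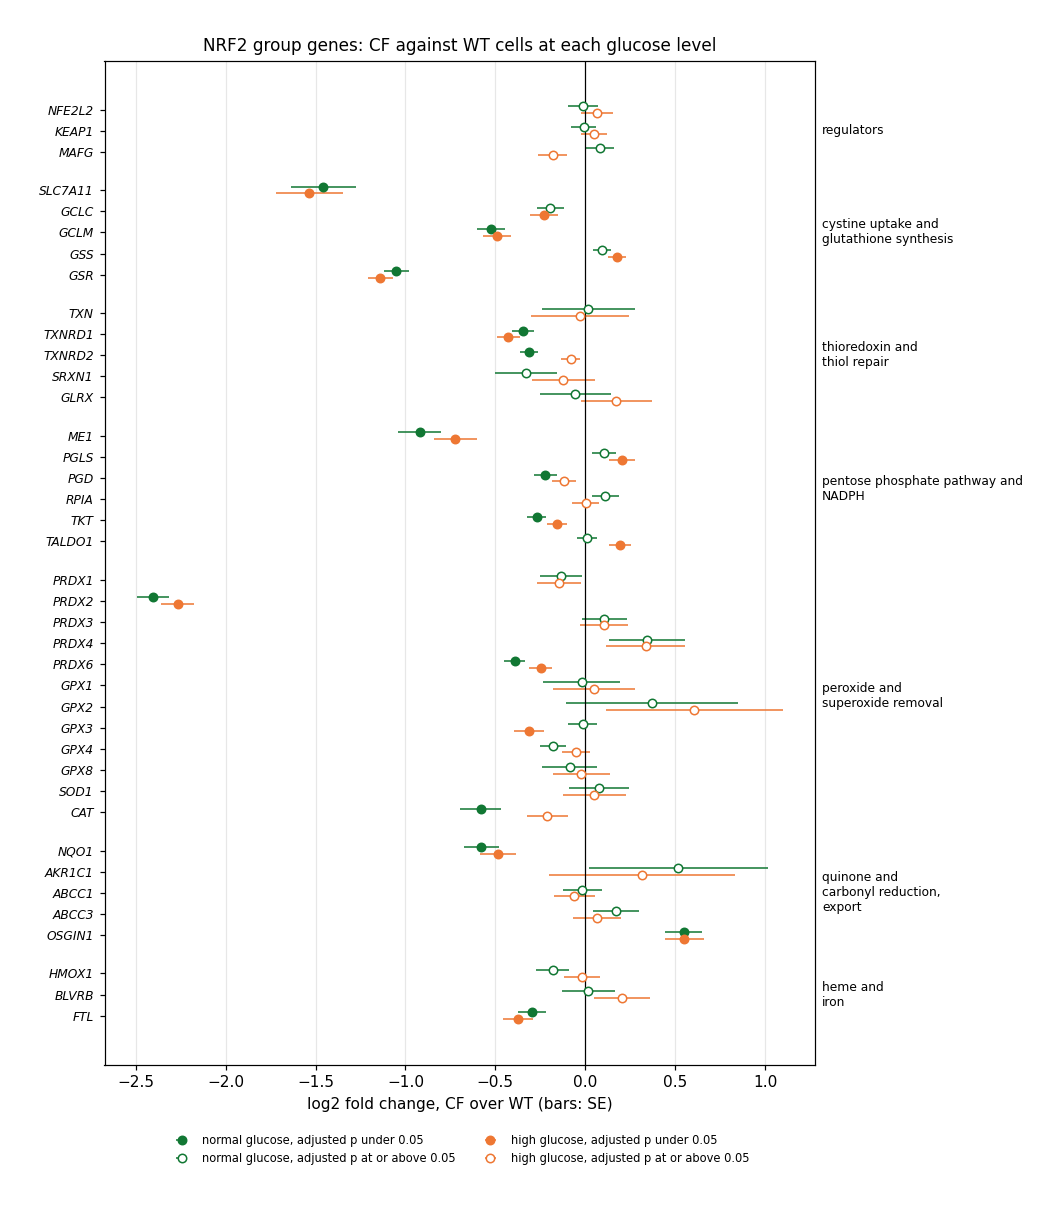
Log2 difference of CF from WT cells with its SE for each of the 39 tested genes, by role, in normal glucose (green) and high glucose (orange). Filled points passed an adjusted p of 0.05, with PRDX2 (-2.40), SLC7A11 (-1.46) and GSR (-1.05) in normal glucose farthest to the left.

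Of the 53 further pathway genes tested, 7 were higher and 10 lower in CF cells in normal glucose, and 8 higher and 7 lower in high glucose. These shares, 13.2% and 18.9% in normal and 15.1% and 13.2% in high glucose, stand beside 11.4% and 13%, and 9.35% and 10.6%, of all genes. In normal glucose the largest were GGT1, which splits extracellular glutathione (log2 1.64), GSTA4, a transferase for lipid peroxidation aldehydes (log2 -1.62), the iron protein PIR (log2 -1.05), CHAC1 (log2 -0.93) and AKR1B1 (log2 0.92). In high glucose they were GSTA4 (log2 -1.75), GGT1 (log2 1.5), PIR (log2 -0.98), the mitochondrial and peroxisomal transferase GSTK1 (log2 0.96) and AKR1B1 (log2 0.83). Of the 7 further regulators, 2 were called higher and 1 lower in CF cells at each glucose level. That share of 42.9% stands beside 24.4% of all genes in either direction in normal and 19.9% in high glucose. Their log2 differences ran from -0.25 to 0.76 in normal and from -0.48 to 0.49 in high glucose.

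Every called gene of glutathione synthesis and of NADPH supply was higher in not polarized than in polarized WT cells in the same glucose. Of the 37 genes tested, 23 were called, 17 higher and 6 lower in not polarized cells. These shares, 45.9% and 16.2%, stand beside 24% and 26% of all 16105 genes tested, where 50% were called in either direction. In cystine uptake and glutathione synthesis 4 of 5 genes were higher, in the pentose phosphate pathway and NADPH supply 5 of 6, and among the 3 regulators none was called. Without overlap between the groups were 15 genes higher and 6 lower (24.2% and 22.4% of all genes, 46.6% in either direction). At an unadjusted p under 0.05 there were 26. The median log2 difference was 0.07 over the 37 and -0.02 over all genes. The summed fibroblast markers were 13.3 to 14.7 CPM in not polarized and 27.4 to 44.3 CPM in polarized libraries. That sum was mostly COL1A1 (means of 13.3 and 35.0 CPM), and PDGFRB had 0.85 and 0.76 CPM. The summed ciliated markers were 3.37 to 5.02 CPM in not polarized and 6.17 to 8.70 CPM in polarized libraries. Of these, DNAH5 had means of 2.15 and 6.10 CPM, and FOXJ1 went the other way, with 1.64 and 0.47 CPM. The part of these markers in the results was not tested. The labels give no separate culture protocol for the not polarized cells, so the polarization and any other difference in culture cannot be told apart.

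SLC7A11 had 129.6, 127 and 125 CPM in the 3 not polarized libraries, against 48.6, 59.9 and 66.3 CPM as lowest, median and highest of the 6 polarized ones. That was 2.10-fold higher (log2 1.07 ± 0.08 SE, adjusted p = 1.81e-07). GCLC (ENSG00000001084, chr6:53497341-53616970), the catalytic subunit of glutamate-cysteine ligase, had 59.5, 58.7 and 52.9 CPM against 25.7, 29.7 and 31.2 CPM (log2 0.95 ± 0.08, adjusted p = 3.10e-07). Neither overlapped. GCLM (0.56) and GSR (0.55) were higher as well, on the log2 scale, and GSS did not pass (0.06 ± 0.06). GSR had 117, 115 and 118 CPM and GCLM 71.5, 68.2 and 62.3 CPM in the not polarized libraries, all above every polarized library.

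ME1 had 27.0, 27.2 and 26.3 CPM in not polarized cells, against 11.3, 12.5 and 13.9 CPM in polarized cells, with no overlap (log2 1.08 ± 0.08, adjusted p = 1.39e-07). It was the largest difference of the group in this comparison. PGD had 80.9, 77.8 and 78.6 CPM against 44.9, 47.1 and 51.4 CPM (log2 0.71 ± 0.07). TKT (0.60), RPIA (0.50), which forms ribose phosphate, and PGLS (0.36) were higher on the log2 scale too, each without overlap, and TALDO1 was not called (0.01). FTL had 1030.0, 1058 and 1056 CPM against 523, 583 and 664 CPM (log2 0.81 ± 0.07, adjusted p = 9.52e-07), and NQO1 had 139.9, 145 and 140.1 CPM against 71.5, 79.2 and 95.7 CPM (log2 0.78 ± 0.09, adjusted p = 5.75e-06). No library of either gene overlapped between the groups.

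Peroxide removal was divided. PRDX6 (log2 0.63), PRDX2 (0.52), GPX4, which protects membranes from lipid peroxides (0.45), and GPX8 of the endoplasmic reticulum (0.34) were higher. PRDX4, the peroxiredoxin of the endoplasmic reticulum (ENSG00000123131, chrX:23664262-23686399), and GPX3 were lower. PRDX4 had 71.8, 69.6 and 73.6 CPM in not polarized libraries, below all polarized libraries, which had 135, 174 and 158 CPM in numbers 1 to 3 and 95.9, 87.4 and 99 CPM in numbers 4 to 6. Its log2 difference of -0.82 ± 0.20 was -1.12 against the first set and -0.42 against the other, passing against each. GPX3 was lower with a log2 difference of -0.52 ± 0.10 (adjusted p = 0.000695). The GPX8 difference was 0.13 (adjusted p = 0.117) against libraries 1 to 3 and 0.57 against libraries 4 to 6, and was lost without WT normal glucose library 1, 4, 5 or 6 or any not polarized library (adjusted p from 0.0519 to 0.146).

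In the thiol systems TXNRD1 (log2 0.30) and SRXN1, the sulfiredoxin that repairs overoxidised peroxiredoxins (0.51), were higher and TXNRD2 lower (-0.28). RPL18AP3 on the strand of TXNRD1 was higher too (log2 0.53), as was HOOK2 on the strand of PRDX2 (log2 0.28, adjusted p = 0.0227). SRXN1 was lost without not polarized library 3 (log2 0.37, adjusted p = 0.126). Lower as well were HMOX1, with 15.4, 18.6 and 16.5 CPM against 19.6, 22.2 and 25.6 CPM (log2 -0.42 ± 0.10, adjusted p = 0.00430), OSGIN1 (log2 -0.63 ± 0.14) and the glutathione conjugate pump ABCC1 (log2 -0.42 ± 0.08). HMOX1 and OSGIN1 were thus lower while NQO1, GCLM, ME1 and SLC7A11, which are also textbook NRF2 targets, were higher. NFE2L2 had 108, 107 and 109.6 CPM (log2 0.02 ± 0.07), KEAP1 54.3, 56.5 and 52.9 CPM (0.03 ± 0.09) and MAFG 75.7, 79.6 and 78.5 CPM (0.07 ± 0.07), and none of the 3 passed. The 14 genes not called ranged in log2 difference from -0.42 for GLRX to 0.12 for CAT. Against either number set of the polarized libraries, all 23 called genes kept their direction and 22 were called in both.

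**Figure D4:**
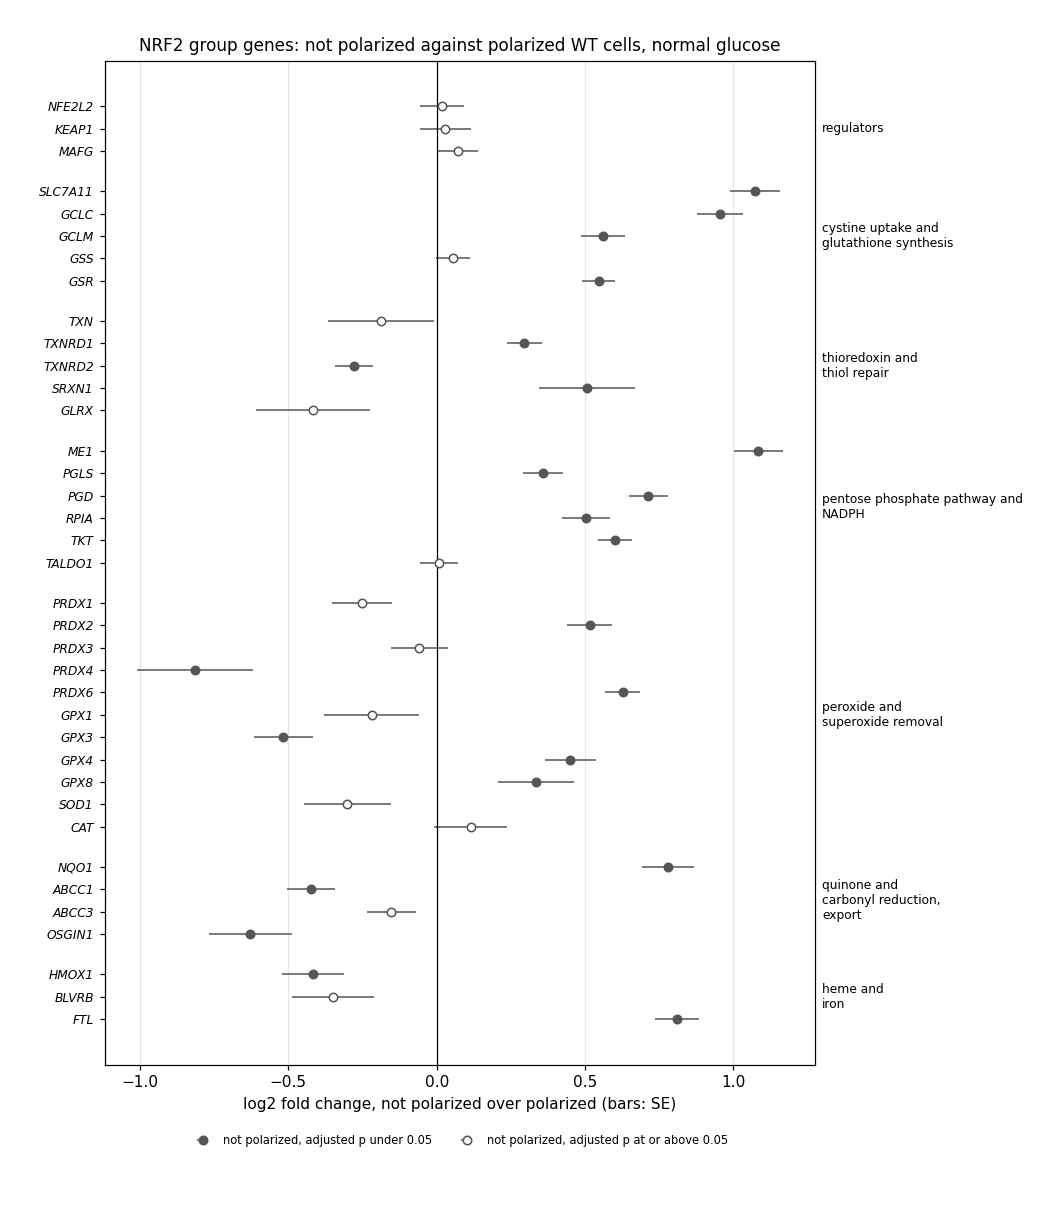
Log2 difference of not polarized (n = 3) from polarized WT cells (n = 6) in normal glucose with its SE for each of the 37 tested genes, by role. Filled points passed an adjusted p of 0.05: 17 lie to the right of 0, with 5 of 6 genes of pentose phosphate and NADPH supply among them, and 6 to the left.

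The comparisons of CF cells and of not polarized cells with WT cells in normal glucose share the same 6 WT libraries. For every gene called between the lines in normal glucose, the log2 differences from those libraries are given side by side, CF cells before not polarized cells. In the glutathione and thioredoxin systems they were -1.46 and 1.07 for SLC7A11, -0.53 and 0.56 for GCLM, -1.05 and 0.55 for GSR, -0.35 and 0.30 for TXNRD1 and -0.31 and -0.28 for TXNRD2. Of NADPH supply and pentose phosphate they were -0.92 and 1.08 for ME1, -0.22 and 0.71 for PGD and -0.27 and 0.60 for TKT. Of peroxide removal they were -2.40 and 0.52 for PRDX2, -0.39 and 0.63 for PRDX6 and -0.58 and 0.12 for CAT, and of the other roles -0.58 and 0.78 for NQO1, 0.55 and -0.63 for OSGIN1 and -0.30 and 0.81 for FTL. TXNRD2 was lower in both, and CAT was not called in not polarized cells.

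**Figure D5:**
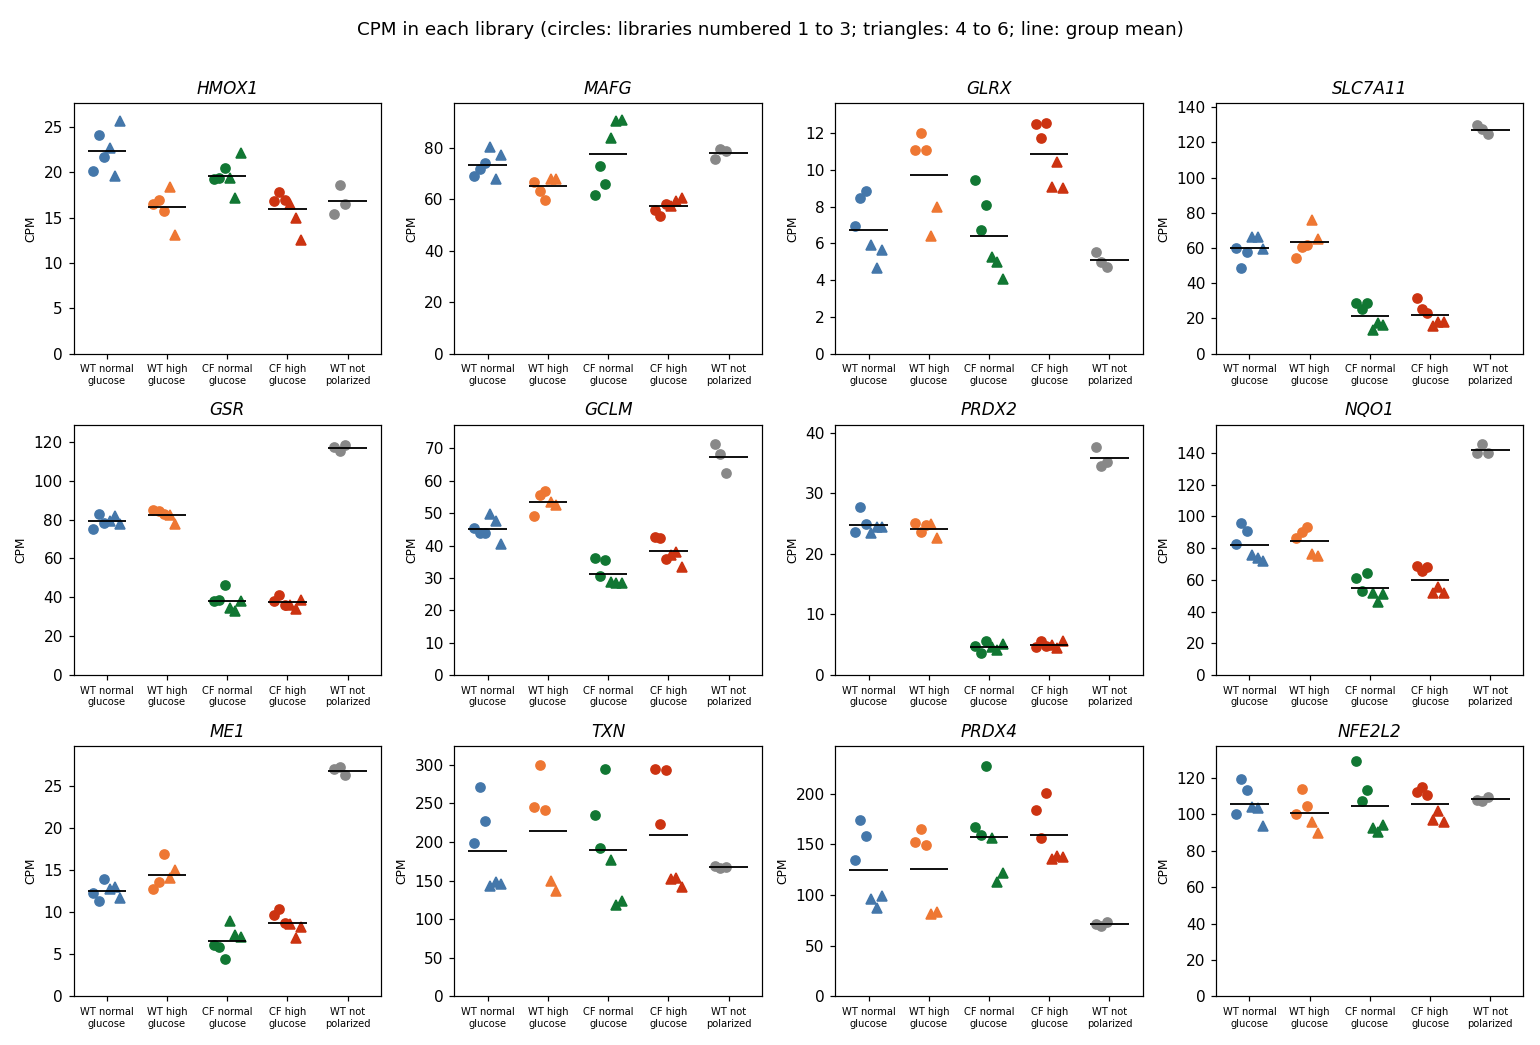
CPM in every library for 12 genes in the 5 groups (circles for libraries numbered 1 to 3, triangles for 4 to 6, lines for group means, axes from 0). The CF points of PRDX2, GSR and SLC7A11 lie below all WT points, and the circles of TXN and PRDX4 lie above the triangles in each of the 4 glucose groups.

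Among the 53 further pathway genes, 21 were higher (39.6%) and 10 lower (18.9%) in not polarized cells, against 24% and 26% of all genes. The largest were XDH (log2 2.54), the conjugate export pump ABCC2 (log2 2.01), CHAC1 (log2 1.29), AKR1B1 (log2 1.24) and the carbonyl reductase CBR3 (log2 -1.21). By role, 6 of the 13 detoxification genes were higher and 2 lower, 5 of the 13 genes of glutathione use were higher and 2 lower, and of 7 further regulators 2 were higher and 3 lower.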

How the data were processed

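Gene expression was measured by sequencing of poly-T selected mRNA in 26 libraries, and the authors deposited whole-number read counts per gene together with FPKM values (fragments per gene length and library size). The submitters' processing notes name HISAT2 and hg38. The sources used here do not give the counting tool, its strand setting or how reads with several matches were treated. Gene names and positions come from GENCODE annotation on GRCh38, and promoters from a RefSeq table.

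The deposited counts were scaled by TMM and tested with edgeR 4.0.16 (quasi-likelihood, robust, R 4.3.3) on the whole table, after filterByExpr with a minimum count of 10 and a minimum total of 15. P-values were adjusted by Benjamini-Hochberg over all genes tested, with 0.05 as the threshold, and standard errors were taken as the log2 fold change over the square root of F. One fit with 4 group means held the 23 glucose libraries, with 19 residual degrees of freedom, and another the 9 libraries of WT cells in normal glucose, polarized or not. FPKM values were used only for levels between genes. The number of libraries, 3 to 6 a group, and totals of 14658319 to 20413839 counts set the precision. The fits were tested on simulated data with 200 genes changed.

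Samples were grouped by their labels. Every gene of the group called in a comparison is named, with NFE2L2, KEAP1, MAFG and NQO1 throughout. For genes called with glucose and for the 5 largest differences elsewhere, values are given as lowest, median and highest in groups of 6 libraries and for each library in smaller groups. Of the further pathway genes, up to 5 with the largest fold changes are named. The members, lists and tests were chosen with earlier results of these data known. Alternatives were DESeq2 1.42.0, other scaling and filters, a term for the library number set, either set alone, a block for the library number, other libraries in the fit, and each library left out. A comparison of proteins was not run.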

Additional observations from a re-analysis of the deposited data

Results flagged for a closer look

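In 39 genes and 4 groups of 5 or 6 libraries, 156 sets of values were examined for a single library far from the rest by Dixon's test, and 4 were found. Chance gives about 1 in 20. TXNRD2 had 49.5 CPM in WT high glucose library 3, below the nearest library at 53.2 CPM. PRDX2 had 27.8 CPM in WT normal glucose library 2, above the nearest at 24.9 CPM. GPX3 had 13.7 CPM in CF normal glucose library 6, above the nearest at 11.4 CPM. OSGIN1 had 12.3 CPM in CF normal glucose library 2, above the nearest at 10.5 CPM.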

How the results depend on the processing

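No called value of the group reversed its direction under any alternative. For glucose in WT cells, 1 gene was called, against 2 with DESeq2, 5 with a term for the library number set and 3 in libraries 4 to 6 alone. For glucose in CF cells, 8 were called, against 5 with only the groups compared in the fit. The interaction called 0, against 1 (MAFG) in libraries 4 to 6 alone. Between the lines in high glucose 16 were called, against 10 without a low-count filter. Leaving out 1 library gave 1 to 1 genes for glucose in WT cells, 5 to 7 in CF cells, 0 to 0 for the interaction, 14 to 15 and 12 to 17 between the lines in normal and high glucose, and 21 to 25 for not polarized cells. In CF cells the count fell to 5 without CF normal glucose library 4 or 6 or CF high glucose library 1 or 2. MAFG, not called between the lines in high glucose, was called there with the term for the set (log2 -0.20, adjusted p = 0.0120). Over all genes, glucose in WT cells called 484, against 780 with DESeq2, 1418 with the term for the set, 823 in libraries 4 to 6 alone, 319 without the filter and 281 without WT high glucose library 3 or 309 without WT normal glucose library 6. Glucose in CF cells called 1374, against 2812 with that term, 2330 in libraries 4 to 6 alone and 891 without the filter. The interaction called 6, against 62 with DESeq2, 146 with that term, 387 in libraries 4 to 6 alone, 1 in libraries 1 to 3 alone, and between 0 and 19 with 1 library left out. The lines in high glucose differed in 3253 genes, against 4973 with that term. For not polarized cells the median log2 difference of all genes moved by -0.11 with DESeq2, which was run without the low-count filter. It moved by 0.009 with RLE scaling factors and by 0.005 with the stricter low-count filter.

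Library numbers were not taken as pairs: the mean correlation of libraries with the same number was 0.20, 0.23, 0.14, 0.20 and -0.01 in the 5 comparisons of groups, against 0.20, 0.21, 0.15, 0.20 and 0.00 for other numbers of the same set. With the replicate block, 4 genes were called for glucose in WT cells (1092 of all genes), 9 in CF cells (2561) and 0 for the interaction (73). Between the lines it called 18 in normal glucose (5423) and 20 in high glucose (4591). For not polarized cells the block was fitted on libraries numbered 1 to 3 only, and it called 29 (8820). The same libraries without the block also gave 29 (8984).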
